A study of Mus musculus with 6 samples.

Results

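The 10 genes described here encode the core of de novo fatty acid synthesis in mouse liver: Srebf1, Mlxipl, Acly, Acss2, Acaca, Acacb, Fasn, Scd1, Me1 and Thrsp. They were chosen by name from the 46095 gene symbols of the deposited expression table, and each of the 10 was found there and was among the 10633 genes tested. Knockout libraries ARRB1-KO1 to ARRB1-KO3 were set against wild-type libraries WT1 to WT3. ARRB1-KO mice carried a deletion of Arrb1, the gene of beta-arrestin 1, an adaptor protein of G protein-coupled receptors, and WT mice did not. All mice were described as strain C57BL/6 and had been on a high-fat diet (HFD) for 26 weeks, so no library came from mice on another diet. RNA was taken from liver material labelled Hepatocyte, and the study asked how beta-arrestin 1 acts on fatty liver disease under this diet. The titles and the series description name ARRB1 for all 3 knockout libraries, whereas the genotype label of ARRB1-KO2 names ARRB2 and that of ARRB1-KO3 names ARRB3. Groups were taken from the titles, and results are also given for ARRB1-KO1 alone. The labels do not say whether the deletion was limited to a cell type, nor whether replicates were separate animals, and the p-values reflect only how far these libraries spread.

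De novo lipogenesis turns surplus carbohydrate into fat. ATP citrate lyase and acetyl-CoA synthetase make cytosolic acetyl-CoA, the acetyl-CoA carboxylases make malonyl-CoA from it, fatty acid synthase builds palmitate with NADPH, and stearoyl-CoA desaturase adds a double bond. In liver the genes of these enzymes are driven by SREBP-1c, which responds to insulin, and by ChREBP, which responds to sugar metabolites.

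Levels are FPKM, fragments scaled to transcript length and to library size, so levels of different genes can be compared per length. Differences were tested with limma on log2(FPKM + 1), ARRB1-KO minus WT, with calls made where p, adjusted over all tested genes, was under 0.05. Estimated depth was 13910000 fragments in ARRB1-KO1, 35060000 and 29170000 in the other ARRB1-KO libraries, and 27910000 to 33320000 in WT libraries. The member with the fewest reads in any library was Acacb, with 840 reads in ARRB1-KO1. Arrb1 itself held 0.918, 1.05 and 1.16 FPKM in ARRB1-KO1 to ARRB1-KO3, against 3.86, 22.7 and 16.9 FPKM in WT1 to WT3. It was lower in each ARRB1-KO library than in any WT library (log2 fold change -2.64 ± 0.514, SE; limma, adjusted p = 0.0275), although WT1 lay far below the other WT libraries. Its call held in 1 of the 6 fits with 1 library left out, the one without WT1. The summed level of the 10 hepatocyte markers was 46385 to 53918 FPKM in ARRB1-KO and 46935 to 55586 FPKM in WT. Most of it was Alb, at 27739.7 to 35463 FPKM over the libraries, whereas Asgr1 held 1.53 to 2.64 FPKM. Of the 10, 1 (Cps1) was called, lower.

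The 10 genes did not all move the same way. The NADPH-producing malic enzyme gene Me1 and the lipogenic nuclear protein gene Thrsp rose in ARRB1-KO, 1.89-fold and 1.90-fold. The acetyl-CoA-producing genes Acly and Acss2 fell to 0.491 and 0.427 of their WT level. The carboxylase and synthase genes Acaca, Acacb and Fasn and the ChREBP gene Mlxipl were not called, with overlapping groups. Scd1, the desaturase gene, and Srebf1, the SREBP-1 gene, were separated by group in opposite directions and missed the threshold. Of the 10 members 2 were called higher (20%), beside 5.30% of all tested genes, and 2 were called lower (20%), beside 1.60% of all tested genes. At an unadjusted p under 0.05, limma gave 7 of the 10, beside 25.3% of all tested genes. The median log2 fold change of the members was 0.24, beside 0.075 for all 10633 tested genes, and 6 of the 10 were positive, beside 63.6% of tested genes. ARRB1-KO lay wholly above WT for 3 members (Scd1, Me1, Thrsp), beside 23.4% of tested genes, and wholly below it for 3 members (Srebf1, Acly, Acss2), beside 7.81%. The count above is close to its background, and neither count was tested for the list. In these bulk samples, fewer cells of a type and less RNA per cell cannot be told apart.

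**Figure D1:**
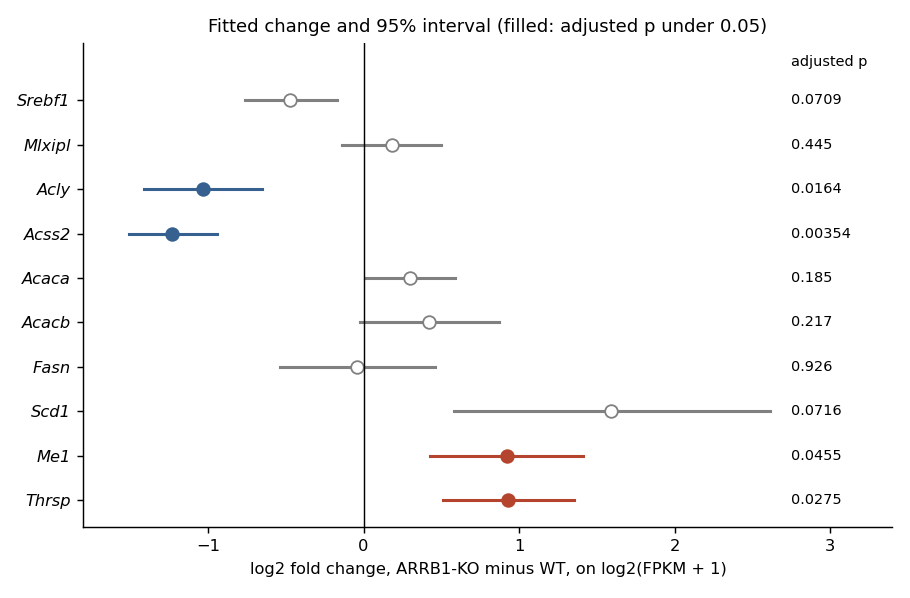
Fitted log2 fold change of each member (x axis, ARRB1-KO minus WT on log2(FPKM + 1)) with its 95% interval (bar) and its limma adjusted p at the right, filled points being called genes. Acly and Acss2 are called lower and Me1 and Thrsp higher, while the interval of Scd1 runs from 0.58 to 2.61.

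**Figure D2:**
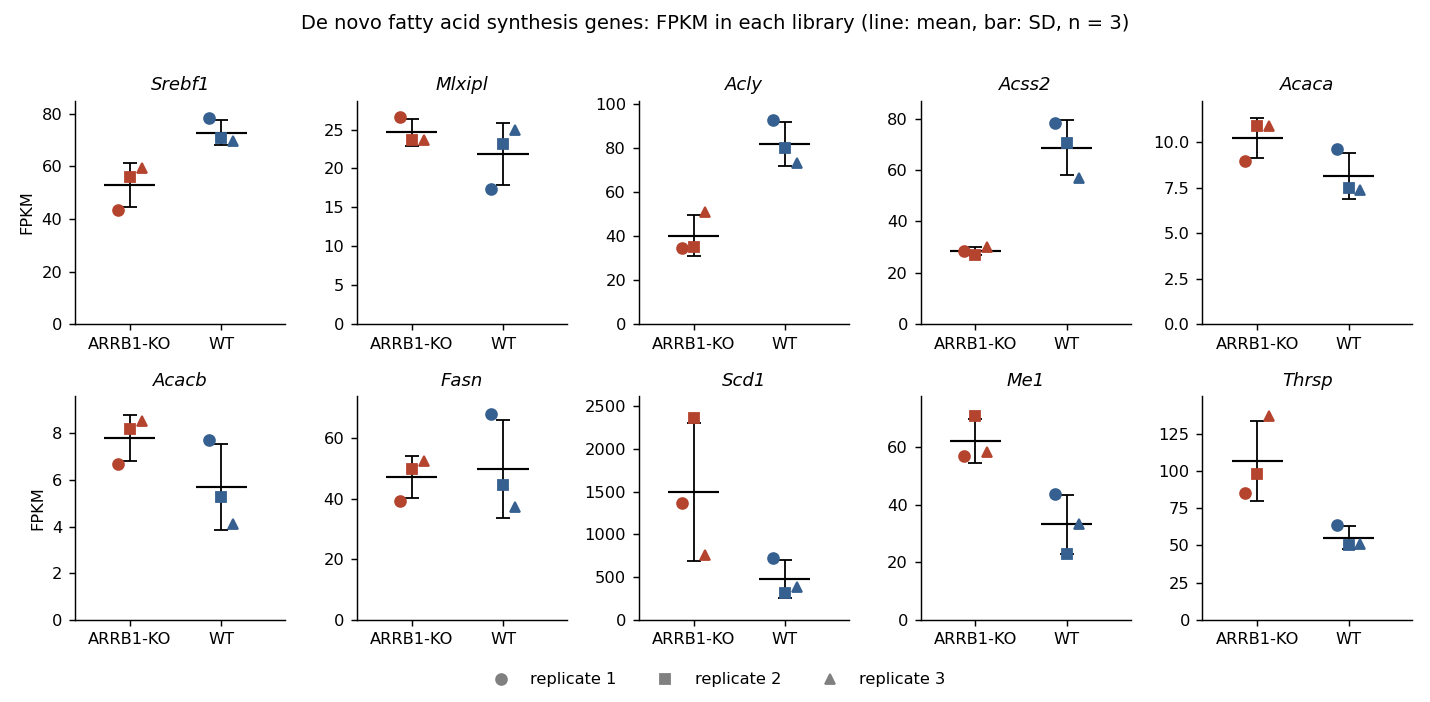
FPKM of each member in each library (y axis, a scale of its own for each gene, from 0), with ARRB1-KO left of WT, the mean as a line and the SD as a bar (n = 3 each). The groups are apart for Srebf1, Acly, Acss2, Scd1, Me1 and Thrsp and overlap for Mlxipl, Acaca, Acacb and Fasn.

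The promoters of the 4 called members are shown because these genes split by direction. Sequences are RefSeq's for GRCm38.p6, from 250 bases before to 50 after the first start listed there, and 9 of the 10 members matched, all but Scd1. The windows of Acaca (chr11:84195188-84195487) and Acacb (chr5:114165268-114165567) lie inside the gene spans given below, not at their outer start. Capitals mark matches on either strand to the CCAAT box (CCAAT, or ATTGG on the other strand) and to the GC box (GGGCGG, or CCGCCC), the general promoter motifs bound by NF-Y and by Sp1-type factors.
Acly, chr11:100527951-100528250, minus strand: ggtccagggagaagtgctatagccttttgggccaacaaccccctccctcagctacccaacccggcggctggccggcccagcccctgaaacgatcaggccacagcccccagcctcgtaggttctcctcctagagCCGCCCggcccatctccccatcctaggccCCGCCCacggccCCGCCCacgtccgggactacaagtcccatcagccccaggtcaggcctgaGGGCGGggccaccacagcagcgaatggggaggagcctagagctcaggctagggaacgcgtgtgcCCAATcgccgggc
Acss2, chr2:155517793-155518092, plus strand: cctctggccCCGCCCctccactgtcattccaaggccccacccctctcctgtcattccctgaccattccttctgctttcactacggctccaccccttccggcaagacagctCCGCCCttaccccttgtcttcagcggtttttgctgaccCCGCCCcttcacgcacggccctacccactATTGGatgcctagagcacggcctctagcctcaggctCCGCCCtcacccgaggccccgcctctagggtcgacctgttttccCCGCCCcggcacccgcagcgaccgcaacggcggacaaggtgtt
Me1, chr9:86695865-86696164, minus strand: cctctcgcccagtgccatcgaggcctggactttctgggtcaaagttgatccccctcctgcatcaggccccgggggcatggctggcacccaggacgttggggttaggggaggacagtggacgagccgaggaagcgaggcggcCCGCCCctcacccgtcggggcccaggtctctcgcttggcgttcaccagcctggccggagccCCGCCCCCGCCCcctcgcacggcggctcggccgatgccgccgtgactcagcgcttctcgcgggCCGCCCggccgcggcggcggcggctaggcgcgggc
Thrsp, chr7:97417501-97417800, minus strand: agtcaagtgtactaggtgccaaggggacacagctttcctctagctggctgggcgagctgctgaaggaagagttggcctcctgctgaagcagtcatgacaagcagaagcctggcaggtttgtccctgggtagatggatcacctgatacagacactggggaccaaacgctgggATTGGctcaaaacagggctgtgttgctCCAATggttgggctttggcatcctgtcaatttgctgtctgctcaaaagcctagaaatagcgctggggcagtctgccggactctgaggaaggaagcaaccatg
The windows of the lower genes Acly and Acss2 held 4 and 5 GC boxes and 1 CCAAT box each. The window of Me1 held 4 GC boxes and no CCAAT box, and that of Thrsp held 2 CCAAT boxes and no GC box, so the higher genes do not share a makeup. Among all 32851 mouse promoters of the table, 37.4% held a CCAAT box and 35.7% a GC box. At the first start of the 9 matched members, 7 held a CCAAT box and 4 a GC box. The sterol regulatory element searched (TCACNCCAC, both strands), the kind of site SREBPs bind, was in none of these 9 windows and in 1.24% of all promoters, and it was found at the second start of Mlxipl. The E-box CACGTG, which reads the same on both strands, was in the window of Mlxipl alone, beside 7.15% of all promoters. A pair of exact CACGTG E-boxes 5 bases apart, a strict form of the arrangement ChREBP binds, was in 0 of the 32851 windows. This search therefore cannot tell the members from other genes. TATAAA was in the window of Acacb alone, beside 13.6% of all promoters. No overlaps between different motifs occurred in the printed windows. These matches describe letters in the windows and are not binding sites.

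Of the transcription factor genes, Srebf1 (chr11:60199089-60222581, minus strand, GRCm38, as for all positions below) had lower values in ARRB1-KO. It held 43.4, 55.9 and 59.3 FPKM in ARRB1-KO1 to ARRB1-KO3, against 78.4, 70.7 and 69.5 FPKM in WT1 to WT3. Each ARRB1-KO library was below every WT library, with ARRB1-KO1 lowest of all. Means were 52.8 ± 8.37 FPKM in ARRB1-KO and 72.9 ± 4.82 FPKM in WT (SD, n = 3 each), or -0.47 ± 0.127 on the log2 scale (SE; limma, adjusted p = 0.0709), which was not called. After median-of-ratios scaling it was called lower (limma, adjusted p = 0.0373). A gene-level FPKM does not tell the SREBP-1a and SREBP-1c transcripts of Srebf1 apart. Mlxipl (chr5:135089890-135138382, plus strand), the ChREBP gene, held 26.6, 23.7 and 23.6 FPKM in the ARRB1-KO libraries, against 17.3, 23.2 and 24.9 FPKM in the WT libraries. The groups overlapped, and the fitted difference of 0.18 on the log2 scale had a 95% interval from -0.14 to 0.50 (limma, adjusted p = 0.445; exact permutation p = 0.4).

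Both genes that supply cytosolic acetyl-CoA fell. Acly (chr11:100476353-100528000, minus strand), which cleaves citrate, held 34.4, 35.1 and 50.9 FPKM in the ARRB1-KO libraries, against 92.6, 79.9 and 73.2 FPKM in the WT libraries. The groups did not overlap, and ARRB1-KO3 stood nearest to WT. Means were 40.1 ± 9.31 FPKM in ARRB1-KO and 81.9 ± 9.85 FPKM in WT (SD, n = 3 each), or -1.03 ± 0.164 on the log2 scale (SE; limma, adjusted p = 0.0164) and a fold of 0.491 with a 95% interval from 0.377 to 0.638. The call was lost without ARRB1-KO2 (limma, adjusted p = 0.0685) and without WT2 (limma, adjusted p = 0.0623), and with no filter on low genes (limma, adjusted p = 0.0722), with the direction kept.

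Acss2 (chr2:155517948-155585724, plus strand), which makes acetyl-CoA from acetate, had the smallest p of the members. It held 28.5, 27.1 and 30.0 FPKM in the ARRB1-KO libraries, against 78.3, 70.7 and 57.1 FPKM in the WT libraries. The ARRB1-KO values were nearly equal to each other, 1.11-fold from lowest to highest, and all lay far below WT. Means were 28.5 ± 1.47 FPKM in ARRB1-KO and 68.7 ± 10.7 FPKM in WT (SD, n = 3 each), or -1.23 ± 0.123 on the log2 scale (SE; limma, adjusted p = 0.00354). It remained called in all 6 fits with 1 library left out, with adjusted p from 0.00794 to 0.0234 by limma. With ARRB1-KO1 as the only knockout library, assumed to vary as the WT libraries do, limma gave adjusted p = 0.0813 for Acss2 and 0.0602 for Acly. Acss2 shares exon bases with the antisense gene Acss2os and with Ggt7 and Gss on the other strand, and whether the libraries kept strand is not given in the sources used here. The same holds for Srebf1 with Rai1, Mlxipl with Gm43500 and Me1 with A330041J22Rik. The ratio of Acss2 to Acly within a library was 0.829, 0.771 and 0.591 in ARRB1-KO, against 0.845, 0.885 and 0.781 in WT, with overlapping groups (exact two-sided permutation p = 0.2), so a difference in how far the pair fell was not detected.

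The genes of the carboxylases and of the synthase were not called. Acaca (chr11:84129672-84401651, plus strand), whose cytosolic enzyme makes malonyl-CoA for synthesis, held 8.98, 10.9 and 10.9 FPKM in the ARRB1-KO libraries, against 9.63, 7.49 and 7.36 FPKM in the WT libraries. Acacb (chr5:114146535-114250761, plus strand), whose mitochondrial enzyme makes the malonyl-CoA that restrains fatty acid oxidation, held 6.66, 8.19 and 8.53 FPKM in the ARRB1-KO libraries, against 7.7, 5.27 and 4.12 FPKM in the WT libraries. In both genes ARRB1-KO1 was the lowest ARRB1-KO library and WT1 the highest WT library, and these overlapped. The log2 fold changes were 0.30 for Acaca (95% interval 0.01 to 0.59; limma, adjusted p = 0.185) and 0.42 for Acacb (95% interval -0.02 to 0.87; limma, adjusted p = 0.217). The ratio of Acacb to Acaca was 0.742, 0.749 and 0.786 in ARRB1-KO, against 0.8, 0.704 and 0.560 in WT, with overlap (exact two-sided permutation p = 0.5).

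Fasn (chr11:120805846-120824547, minus strand), the gene of fatty acid synthase, held 39.3, 49.9 and 52.3 FPKM in the ARRB1-KO libraries, against 67.9, 44.4 and 37.2 FPKM in the WT libraries. WT libraries spanned the whole ARRB1-KO range. Means were 47.2 ± 6.93 FPKM in ARRB1-KO and 49.8 ± 16.1 FPKM in WT (SD, n = 3 each), a difference of -0.04 ± 0.216 on the log2 scale (SE, limma; adjusted p = 0.926, and p = 1.0 by an exact permutation test). The 95% interval of the fold ran from 0.686 to 1.37, so changes within that range in either direction are compatible with these values. Its sign turned without WT1 (0.20), without ARRB1-KO1 (0.08) and on the TPM scale (0.01).

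Scd1 (chr19:44394455-44407879, minus strand), which makes monounsaturated fatty acids such as oleate, was the highest member in both groups. It held 1371, 2362 and 756 FPKM in the ARRB1-KO libraries, against 728, 319 and 381 FPKM in the WT libraries. Every ARRB1-KO library was above every WT library, though ARRB1-KO3 and WT1 were close to each other, and the highest value was 3.12-fold the lowest within ARRB1-KO and 2.28-fold within WT. The log2 fold change of 1.59 ± 0.438 (SE) was the largest of the members and was not called (limma, adjusted p = 0.0716), with a fold of 3.02 and a 95% interval from 1.49 to 6.11. It was called higher without ARRB1-KO3 (limma, adjusted p = 0.0417) and by voom on recovered reads (limma, adjusted p = 0.0448). Its close relatives were low, with Scd2 at 1.79, 2.74 and 1.64 FPKM in ARRB1-KO and 1.67, 1.60 and 1.97 FPKM in WT, and how reads shared between these genes were counted is not given in the sources used here. Of the summed level of the 10 members, Scd1 made up 80.6%, 86.1% and 63.7% in ARRB1-KO1 to ARRB1-KO3, against 61.3%, 46.0% and 51.6% in WT1 to WT3. Without Scd1 the other 9 members summed to 330.0, 380.0 and 431 FPKM in ARRB1-KO, against 459, 375 and 358 FPKM in WT, so the groups overlapped.

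Me1 (chr9:86581371-86695953, minus strand), the cytosolic malic enzyme that yields NADPH, rose. It held 56.8, 70.9 and 58.5 FPKM in the ARRB1-KO libraries, against 43.6, 23.0 and 33.2 FPKM in the WT libraries. The groups did not overlap, and WT values were the more spread. Means were 62.1 ± 7.70 FPKM in ARRB1-KO and 33.2 ± 10.3 FPKM in WT (SD, n = 3 each), or 0.92 ± 0.213 on the log2 scale (SE; limma, adjusted p = 0.0455) and a fold of 1.89 with a 95% interval from 1.34 to 2.66. The call was marginal and held in 1 of the 6 fits with 1 library left out, the one without WT1 (limma, adjusted p = 0.0289), the highest adjusted p being 0.153 without ARRB1-KO2. Of the 18 alternatives tried in all, 5 kept the call and all kept the direction, with a log2 fold change from 0.69 to 1.13.

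Thrsp (chr7:97412938-97417730, minus strand), the gene of Spot 14, a thyroid hormone-responsive protein that promotes lipogenesis, rose as well. It held 85.4, 98.2 and 137 FPKM in the ARRB1-KO libraries, against 63.8, 50.1 and 51.2 FPKM in the WT libraries. The groups did not overlap, and ARRB1-KO3 was the highest. Means were 107 ± 27.2 FPKM in ARRB1-KO and 55.0 ± 7.62 FPKM in WT (SD, n = 3 each), or 0.93 ± 0.181 on the log2 scale (SE; limma, adjusted p = 0.0275) and a fold of 1.90 with a 95% interval from 1.42 to 2.54. The call was lost without ARRB1-KO2 (limma, adjusted p = 0.0891), without WT2 (0.105) and without WT3 (0.0693). It was also lost with no filter on low genes (limma, adjusted p = 0.106) and with a replicate block (0.0518). With ARRB1-KO1 as the only knockout library, limma gave adjusted p = 0.227 for Thrsp and 0.357 for Me1, and all 10 members kept the sign they had with 6 libraries. For every member, separated or not, the exact two-sided permutation test of 3 against 3 libraries cannot go below 0.1, which was the p of each of the 6 members whose groups did not overlap.

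Adipocytes also express genes of fatty acid synthesis, so adipocyte markers were read beside the 10 members. The summed level of the 6 adipocyte markers was 34.1, 78.9 and 99.1 FPKM in ARRB1-KO1 to ARRB1-KO3, against 11.4, 0.646 and 5.14 FPKM in WT1 to WT3. Cidec, which fatty hepatocytes also express, made up most of it in each ARRB1-KO library (27.1, 68.9 and 63.1 FPKM) and was the one of the 2 tested that was called. The other, Cfd, overlapped between groups at 6.98, 9.51 and 34.4 FPKM in ARRB1-KO, against 10, 0.232 and 2.74 FPKM in WT. The defining markers Adipoq, Plin1, Lep and Retn were below the filter and at 0 in ARRB1-KO1, the shallowest library. The highest of these markers in any library was Adipoq, at 0.185 FPKM in ARRB1-KO2, 0.723 FPKM in ARRB1-KO3 and 0.402 FPKM in WT3. In ARRB1-KO2 and ARRB1-KO3, Plin1 held 0.185 and 0.632 FPKM, Lep 0.0869 and 0.24 FPKM, and Retn 0 and 0.0301 FPKM. Plin1, Lep and Retn were at 0 in every WT library. Other non-hepatocyte markers differed too. Of macrophage markers 1 of 6 tested was called (Gpnmb, higher), with sums of 137, 269 and 144 FPKM in ARRB1-KO, against 106, 101 and 108 FPKM in WT. Among stellate cell markers Col1a1 was called higher, 1 of 7, with sums of 104 to 161 FPKM in ARRB1-KO and 95.1 to 118 FPKM in WT. Of endothelial markers Pecam1 and Lyve1 were called higher, 2 of 6, with sums of 82.7 to 96.3 FPKM in ARRB1-KO and 73.8 to 87.1 FPKM in WT. These sums overlapped between groups for stellate and endothelial cells and not for macrophages. Vsig4 was the Kupffer cell marker called, lower, 1 of 6, with sums of 157 to 164 FPKM in ARRB1-KO and 158 to 183 FPKM in WT. Hbb-b1, a globin gene, was called higher, 1 of 5 erythroid genes. It held 11.1, 40.4 and 8.22 FPKM in ARRB1-KO, against 0.0476, 0.284 and 0.21 FPKM in WT. The globin genes Hbb-bs and Hbb-bt had negative log2 fold changes (-1.77 and -1.25), overlapped between groups and were not called. The erythroid sums overlapped at 67.1 to 162 FPKM in ARRB1-KO and 79.4 to 127 FPKM in WT. Cholangiocyte markers (4 tested) and neutrophil markers (2 tested, with Mpo at 0 in every library) had no call, and the 6 lymphocyte markers were below the filter. The part of these cells in the results for the 10 genes was not tested.

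**Figure D3:**
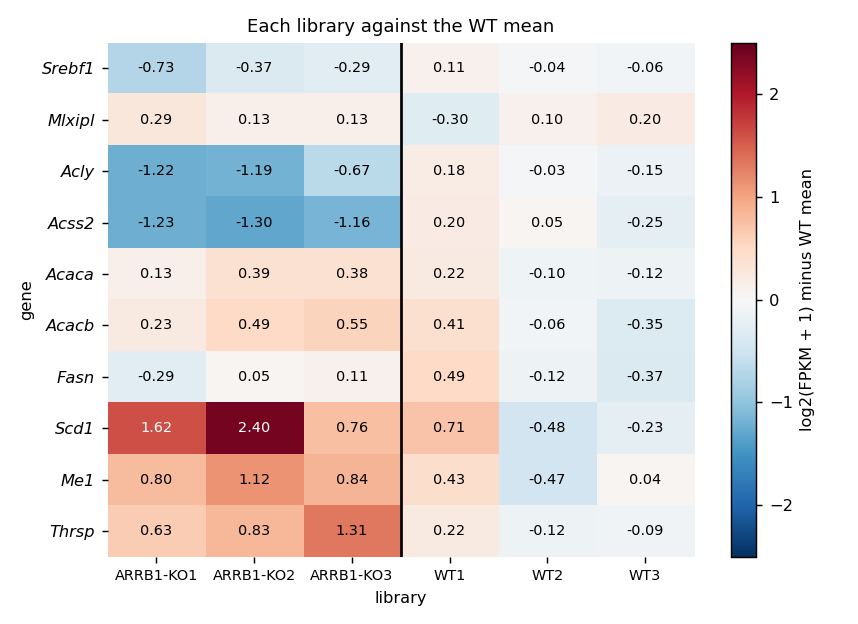
Difference of each library from the WT mean on log2(FPKM + 1) for each member (colour and number), with the ARRB1-KO libraries left of the line and the WT libraries right of it. WT1 is the highest WT library in 9 of the 10 rows, and the Acss2 row is nearly even across ARRB1-KO1 to ARRB1-KO3.

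Libraries differed along the members in a way that crossed the groups, as the heat map of deviations from the WT mean shows. WT1 was the highest WT library for 9 of the 10 members, Mlxipl being the exception, and it was also the WT library with the least Arrb1. ARRB1-KO1, the shallowest library, was the lowest ARRB1-KO library for 7 members, and ARRB1-KO3 was the highest for 6. By mean level in ARRB1-KO the order was Scd1, Thrsp, Me1, Srebf1, Fasn, Acly, Acss2, Mlxipl, Acaca and Acacb. Of these neighbours, Me1 and Srebf1, Srebf1 and Fasn, and Fasn and Acly had overlapping ranges. In WT the order was Scd1, Acly, Srebf1, Acss2, Thrsp, Fasn, Me1, Mlxipl, Acaca and Acacb, and there only Scd1 with Acly, and Mlxipl with Acaca, had ranges that stood apart. In ARRB1-KO, Thrsp and Me1 thus stood directly behind Scd1, ahead of Acly, whereas in WT both came after Acly.

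Ratios between members within a library do not depend on how libraries were scaled, and 13 were computed, chosen with earlier results known. Me1 over Acly was 1.65, 2.02 and 1.15 in ARRB1-KO, against 0.471, 0.287 and 0.453 in WT, a 3.97-fold difference without overlap (exact two-sided permutation p = 0.1, Benjamini-Hochberg adjusted over the 13 ratios 0.144). Me1 thus exceeded Acly in each ARRB1-KO library and was under it in each WT library. Scd1 over Fasn was 34.9, 47.3 and 14.5 in ARRB1-KO, against 10.7, 7.20 and 10.3 in WT, 3.11-fold higher without overlap. Acacb over Fasn was 0.170, 0.164 and 0.163 in ARRB1-KO, against 0.113, 0.119 and 0.111 in WT. Acaca over Fasn was 0.229, 0.219 and 0.208 in ARRB1-KO, against 0.142, 0.169 and 0.198 in WT. The carboxylase genes, whose own levels overlapped, were thus separated by group relative to Fasn, 1.30-fold for Acaca and 1.45-fold for Acacb. Ratios to Fasn were also without overlap for Me1 (1.98-fold) and Thrsp (1.97-fold), and, lower in ARRB1-KO, for Srebf1 (0.741 of the WT ratio), Acly (0.499) and Acss2 (0.431). Each of these 9 separated ratios had the smallest p this design allows, exact permutation p = 0.1, and adjusted p = 0.144. All but Me1 over Acly share Fasn as the denominator, so the 9 are not separate observations. How often other gene pairs are separated in this way was not computed. Srebf1 over Srebf2, its SREBP-2 counterpart, was 3.16, 4.0 and 4.10 in ARRB1-KO, against 3.05, 3.26 and 3.81 in WT, with overlap (exact two-sided permutation p = 0.3).

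Genes with the profile most like that of a member were sought by the root mean square difference of mean-centred log2(FPKM + 1) over the 6 libraries, for the member with the smallest p in each direction. Nearest to Acss2 were ND3 (0.114), Tm7sf2 (0.140) and Gm5873 (0.149), and Acly came 7th among tested genes (0.184), Srebf1 167th (0.414). ND3 and Gm5873 were at most 4.14 and 2.06 FPKM in any library, while Tm7sf2, a sterol reductase gene, held 36.0, 34.6 and 43.4 FPKM in ARRB1-KO, against 109.9, 101 and 96.8 FPKM in WT. Nearest to Thrsp were Slc5a6 (0.15), the gene of a transporter of biotin and other vitamins, Kctd17 (0.156) and Fabp4 (0.157), a fatty acid-binding protein gene of adipocytes and macrophages. Me1 came 228th (0.292), so many genes were nearer to Thrsp than Me1 was, although this pair was called with like folds.

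Around these members, 7 lists of related genes were read, each with its counts and median and no test of the list. Among 14 tested genes that control SREBP-1c and ChREBP, 1 was called higher and 3 lower (median log2 fold change 0.17). Insig1, which holds SREBPs in the endoplasmic reticulum and is itself an SREBP target, fell to 57.8, 75.5 and 82.9 FPKM in ARRB1-KO, against 253, 277 and 182 FPKM in WT (limma, adjusted p = 0.00502). Insig2, its insulin-repressed counterpart, rose to 191, 222 and 263 FPKM in ARRB1-KO, against 140.2, 105 and 152 FPKM in WT (limma, adjusted p = 0.0381). In both, every ARRB1-KO library lay on one side of every WT library. Srebf2, the SREBP-2 gene, held 13.7, 14.0 and 14.5 FPKM in ARRB1-KO, against 25.7, 21.7 and 18.2 FPKM in WT (limma, adjusted p = 0.0336). Scap, whose protein escorts SREBPs to the Golgi, held 35.1, 31.3 and 34.2 FPKM in ARRB1-KO, against 44.4, 44.6 and 43.6 FPKM in WT (limma, adjusted p = 0.0323). The groups were apart for these as well, and the ARRB1-KO values of Srebf2 were nearly equal to each other. The lower count was 1 without ARRB1-KO2, ARRB1-KO3, WT1 or WT2 and with no filter. The higher count was 0 without ARRB1-KO2, ARRB1-KO3 or WT1, with no filter and after median-of-ratios scaling, and 2 on the TPM scale and by voom.

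**Figure D4:**
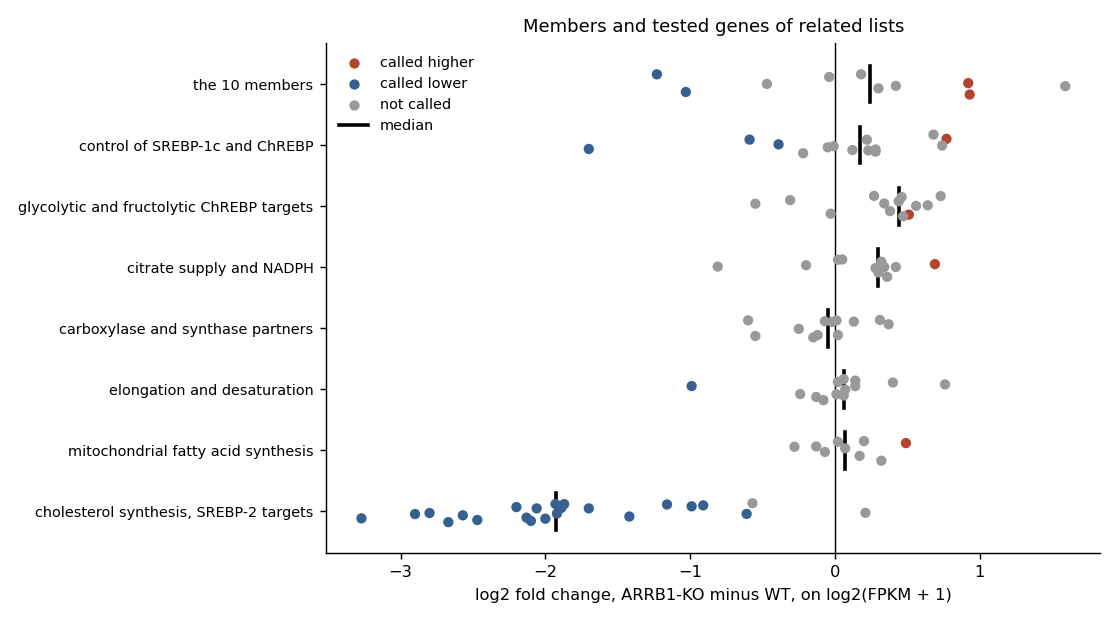
Log2 fold change (x axis, ARRB1-KO minus WT on log2(FPKM + 1)) of the 10 members and of the tested genes of 7 related lists, 1 point per gene, coloured by call, with the median as a bar. The cholesterol synthesis list lies far to the left (median -1.93), while the other medians are between -0.05 and 0.44.

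Among 13 glycolytic and fructolytic genes known as ChREBP targets, limma called 1 higher, Gpi1, and 0 lower, with a median of 0.44. Gpi1, the glucose-6-phosphate isomerase gene, averaged 59.3 ± 7.48 FPKM in ARRB1-KO and 41.3 ± 4.04 FPKM in WT (SD, n = 3 each; limma, adjusted p = 0.0455). At an unadjusted p under 0.05, 9 of the 13 were up and 0 down, beside 19.1% up and 6.19% down among all tested genes. The count called higher was 4 on the TPM scale, 3 by voom and 2 with array weights, and 0 after median-of-ratios scaling, with no filter, with eBayes without trend or without any 1 library. Of 11 tested genes of citrate supply and NADPH production, 1 was higher and 0 lower (median 0.30). It was Pcx, which makes oxaloacetate from pyruvate, with 323, 304 and 314 FPKM in ARRB1-KO, against 231, 163 and 195 FPKM in WT (limma, adjusted p = 0.0254). The count of this list was 0 without ARRB1-KO1, ARRB1-KO2, ARRB1-KO3, WT2 or WT3, with no filter and after median-of-ratios scaling, and 2 on the TPM scale. In both lists 0 genes were down at an unadjusted p under 0.05, and by voom 0 were lower.

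Of 12 tested partners of the carboxylases and the synthase, limma and voom called 0 in either direction (median -0.05), and 2 were up and 1 down at an unadjusted p under 0.05. Mlycd, which breaks malonyl-CoA down, averaged 39.2 ± 2.5 FPKM in ARRB1-KO and 30.1 ± 3.21 FPKM in WT (SD, n = 3 each; limma, adjusted p = 0.0685), and Acbd3 10.1 ± 1.03 FPKM in ARRB1-KO and 7.94 ± 0.704 FPKM in WT (limma, adjusted p = 0.113). Among 13 tested elongation and desaturation genes, 1 was lower, Elovl3, the elongase of very long chains, and 0 higher (median 0.06; 2 up at an unadjusted p under 0.05, and 0 higher by voom). Elovl3 averaged 212 ± 62.5 FPKM in ARRB1-KO and 415 ± 83.0 FPKM in WT (SD, n = 3 each; limma, adjusted p = 0.0414), and this call was lost without ARRB1-KO1, ARRB1-KO2, WT1, WT2 or WT3, with no filter and with array weights. Without ARRB1-KO1, 1 gene of this list was called higher. Of 9 tested genes of mitochondrial fatty acid synthesis, a separate pathway that makes the lipoic acid precursor, 1 was higher and 0 lower (median 0.07; 0 down at an unadjusted p under 0.05, and 0 lower by voom). It was Acsf3, the malonyl-CoA synthetase, with a mean of 21.9 ± 1.48 FPKM in ARRB1-KO and 15.3 ± 1.96 FPKM in WT (SD, n = 3 each; limma, adjusted p = 0.0414). That call was kept with 1 library left out only without WT1, and the count of the list was 0 with no filter, eBayes without trend or either median-of-ratios or quantile scaling, and 2 with array weights or on the TPM scale.

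Most cholesterol synthesis genes under SREBP-2 fell. Of 23 tested, 21 were lower and 0 higher (median -1.93; 0 up at an unadjusted p under 0.05, and 0 higher by voom), and 17 to 21 were lower over the 18 alternatives. The 4 with the smallest p were Pmvk, Fdft1, Tm7sf2 and Msmo1. Pmvk, of the mevalonate pathway, held 12.0, 11.3 and 12.7 FPKM in ARRB1-KO, against 47.8, 45.9 and 46.0 FPKM in WT (limma, adjusted p = 0.000204). Fdft1, squalene synthase, held 9.11, 10.1 and 12.2 FPKM in ARRB1-KO, against 59.6, 48.3 and 47.2 FPKM in WT, and Msmo1, a sterol oxidase, 20.3, 22.4 and 36.3 FPKM in ARRB1-KO, against 213, 188 and 154 FPKM in WT. In these genes ARRB1-KO3 was the highest ARRB1-KO library and WT1 the highest WT library, which was also so for 6 of the 10 members: Srebf1, Acly, Acss2, Acacb, Fasn and Thrsp. The log2 fold changes of Acly (-1.03), Acss2 (-1.23) and Srebf1 (-0.47) were nearer to 0 than the median of this list, and no difference between the lists was tested.

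**Figure D5:**
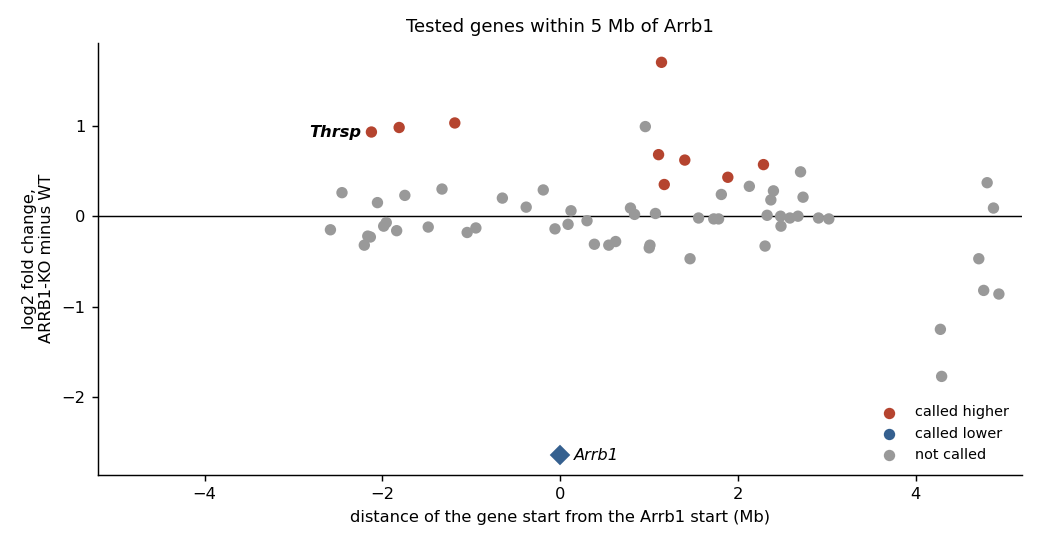
Log2 fold change (y axis, ARRB1-KO minus WT on log2(FPKM + 1)) of the tested genes by distance of their annotated start from that of Arrb1 (x axis, Mb), coloured by call. Thrsp, at 2.12 Mb before Arrb1, is 1 of 9 genes called higher, which lie on both sides of Arrb1 among genes that were not called.

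Thrsp lies on chromosome 7 with Arrb1 (chr7:99535466-99606771), its annotated start 2.12 Mb away, so its call was set beside those of its neighbours. Within 5 Mb of the Arrb1 start, 64 other genes were tested, of which 9 (14.1%) were called higher, beside 5.07% of the other 690 tested genes of the chromosome. These 9 were Thrsp, Aqp11, Tsku, Plekhb1, Gm35082, Fam168a, P2ry6, Pde2a and Inppl1, those other than Thrsp being named after their values were seen. Limma called 0 of the 64 lower, and voom called 1 lower. At an unadjusted p under 0.05, limma gave 8 of the 64 lower, beside 6.19% of all tested genes. The median log2 fold change of the 64 was -0.01. Without overlap, 19 of the 64 lay above WT, beside 23.4% of all tested genes, and 11 below it, beside 7.81%. The globin genes Hbb-bt and Hbb-bs are among the 64, at 4.277 and 4.291 Mb after the Arrb1 start. Hbb-b1, the globin gene called higher, is not among the 64. The labels do not say how the mutant line was made or crossed, and the part of the locus in the Thrsp result was not tested.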

How the data were processed

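The 3 ARRB1-KO and 3 WT RNA-seq libraries were grouped by their titles. The authors deposited 1 FPKM value per gene symbol and library. Trizol RNA, 1 ug per library, went into an Illumina TruSeq kit, per the labels' protocols. Per the submitters' processing notes, Bowtie 0.12.2, HISAT2 and the builds mm8 and mm10 were involved; their roles, the annotation, the strand setting and the handling of multi-mapping reads are not given in the sources used here. Positions are those of GENCODE vM21 (GRCm38), matched by symbol.

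The 10633 of 46095 genes that averaged 1 FPKM or more were fitted on log2(FPKM + 1) in R 4.3.3 by limma 3.58.1 (lmFit and trended eBayes, two-sided), genotype being the only term, with Benjamini-Hochberg adjustment over all of them and a threshold of 0.05. Fold changes are on that scale and understate the change of low genes. The FPKM steps gave back whole reads for each of the 17549 genes with values above 0 in 4 or more libraries, with a tolerance of 0.001 reads, widened by 5e-08 of the count to 0.05 reads at most. These reads served limma's voom, which called 797 genes higher and 198 lower, and the depth estimates, which rest on annotated lengths of single-transcript genes (224 of 1171 in the most common 0.5% interval). Single values and ratios were tested with exact permutation tests in Python 3.11.15 (scipy 1.17.1, pandas 2.3.3), and plots used matplotlib 3.10.9. The fit was tested on simulated data.

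The members, gene lists, markers and ratios were chosen with earlier results of these data known. Genes named are the 10 members, Arrb1, the called genes of each list up to the 4 with the smallest p (the 2 with the smallest p where none was called), and the 3 genes nearest in profile to the member with the smallest p in each direction. Other genes are said to be named after their values were seen or are markers. Single values of some listed genes are not reported here. As alternatives, the pseudocount was set to 0.1, the filter dropped or raised to 5 FPKM, the values put on the TPM scale, quantile-normalized or scaled by median of ratios, eBayes run robustly or without trend, array weights or a replicate block added, and voom run; each library was left out in turn, and ARRB1-KO1 alone was set against WT, which was added after seeing the data.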

Additional observations from a re-analysis of the deposited data

How the results depend on the processing

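Among the members, the 2 higher calls (Thrsp, Me1) depended most on the processing. The number called higher was 1 with quantile normalization, median-of-ratios scaling, array weights, robust eBayes or eBayes without trend, 0 with no filter, with the replicate block or with ARRB1-KO1 alone, and 0 to 2 with each library left out. The replicate block gave an adjusted p of 0.0518 for Thrsp and 0.0736 for Me1 by limma, and left 1 lower gene among those that control SREBP-1c and ChREBP and 0 higher genes among the ChREBP targets and in mitochondrial fatty acid synthesis. With ARRB1-KO1 alone, limma called 0 genes in each related list other than cholesterol synthesis. The number called lower was 1 with no filter, 0 with ARRB1-KO1 alone and 1 to 2 with each library left out, and 14 of the 18 alternatives kept a count within 1.5 times the 2 reported. The median log2 fold change of the members stayed between 0.14 and 0.31 over the 18 alternatives. Signs were kept for 9 members under every alternative, and that of Fasn turned on the TPM scale (0.01) and with libraries left out (-0.23 to 0.20). Over all tested genes, the count called higher was 990 for TPM values, 371 with quantile normalization, 346 with median-of-ratios scaling, 280 with the replicate block, 88 with no filter, 29 with ARRB1-KO1 alone and 94 to 422 with each library left out. The count called lower was 58 with no filter, 42 with ARRB1-KO1 alone and 54 to 119 with each library left out. The share of calls that were higher was 85.2% for TPM values, 76.8% as deposited, 64.5% with quantile normalization and 59.9% with median-of-ratios scaling. Median-of-ratios scaling moved the median of all genes by -0.092 and the TPM scale by 0.055 on the log2 scale. With no filter more genes were tested, and with libraries left out fewer libraries; otherwise the cause was not tested. The labels do not say that a replicate number pairs libraries, so the numbers were not taken as pairs. Deviations of same-numbered libraries had correlations of 0.17, -0.063 and 0.097, and not every library deviated most like the one of its own number. The least-covered library, ARRB1-KO1, had at least 840 reads for each member. How far counting and the spread between libraries each limit these values was not tested. With 3 libraries a group, real changes may have gone undetected, and any change within a stated interval is compatible with the values.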
